A study of Mus musculus with 6 samples.

Results

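Vmp1 (Entrez 75909) is described here through its exon bins, the exons or parts of exons into which reads were counted. The members were chosen by their measured usage: they are all rows of Vmp1 in the authors' deposited tables of differential exon usage, which list a bin only where its usage differed from control at an adjusted p under 0.01. The table for the Pnky knockdown held 11 Vmp1 bins of 249 listed bins, and the table for the Ptbp1 knockdown held 9 of 958. The 9 bins of the second table were all among the 11 of the first. In all, 1089 bins were listed in at least 1 table and 118 in both. Row names number the bins of a gene, and the first bin of a gene has no number; that of Vmp1 is called the unnumbered bin.

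The libraries came from cultured cells of the ventricular-subventricular zone, the stem cell niche along the lateral ventricles, derived from C57/B6 mice at postnatal day 5 to 7. The control group, shCtrl, carried a short hairpin RNA against luciferase, shPnky a hairpin against the long noncoding RNA Pnky, and shPtbp1 a hairpin against Ptbp1, which encodes a splicing regulator that binds pyrimidine-rich RNA. All groups grew in a serum-containing self-renewal medium with EGF and FGF, received the hairpin from a vector with a GFP or mCherry marker, and were purified by sorting for that marker. There were 2 libraries per group. Whether these came from separate animals or cultures, and how many animals were pooled, is not stated in the labels, so any error given here measures only the spread between libraries, which may be technical. In bulk samples of this kind, fewer cells of a type and less RNA per cell cannot be told apart.

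VMP1 is a membrane protein of the endoplasmic reticulum that is required for autophagosome formation. It moves lipids between membrane leaflets and helps the reticulum release the growing autophagosome membrane at contact sites. The gene is also known as the host of miR-21, a microRNA whose hairpin lies at the gene's downstream end and whose primary transcript can start inside Vmp1.

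In the GENCODE M21 annotation (build GRCm38), Vmp1 lies on the minus strand of chromosome 11, and its full-length coding transcript Vmp1-201 has 12 exons and 2787 bases. Exon 12, the longest at 1587 bases, holds 144 coding bases and 1443 bases of 3′ untranslated region, and the Mir21a gene (92 bases) lies wholly inside it. Of 8 annotated Vmp1 transcripts, 5 hold the last exon. Of these 5, 4 overlap no exon before exon 10, so the annotation has short transcripts that share only the 3′ end with the full-length one. The deposited tables were made on mm9 and give no positions for the bins, so annotation is used here only for lengths, order and sequence.

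Placing the bins with higher usage by length and reads (below) leaves the 3′ end of the gene for those with lower usage. The latter were not themselves placed by length and reads. The sequences below show this 3′ end. The first is exon 11 of Vmp1-201 whole, and the second the coding part of exon 12 with its stop codon in capitals, both from GENCODE M21 (GRCm38, minus strand, written 5′ to 3′ along the transcript). The other two are the mature microRNAs cut from the hairpin inside exon 12, from RefSeq (GRCm38.p6), with the seed (bases 2 to 8) in capitals.
Vmp1-201 exon 11: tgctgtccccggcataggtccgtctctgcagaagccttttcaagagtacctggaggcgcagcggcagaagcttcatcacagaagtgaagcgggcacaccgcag
Vmp1-201 exon 12, coding part: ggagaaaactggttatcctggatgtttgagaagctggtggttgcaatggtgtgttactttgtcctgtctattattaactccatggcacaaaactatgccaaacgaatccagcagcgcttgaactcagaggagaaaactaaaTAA
mmu-miR-21a-5p: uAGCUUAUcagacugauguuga
mmu-miR-21a-3p: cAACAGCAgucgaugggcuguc
Both arms belong to Mir21a. Mature microRNAs are not measured by these poly(A)-selected libraries, and no bin of Mir21a was listed.

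How the bin numbers run along the gene was read from the counts. Bins 2 to 10 were compared with each run of 9 consecutive exons of Vmp1-201, in both directions. Mean shCtrl reads followed exon length most closely when bin 2 was set to exon 10 and bin 10 to exon 2, so that numbers ran against transcription (Pearson r = 0.91, Spearman rho = 0.83, 9 bins of the same 2 libraries, given as a description). The next best placement ran with transcription, from exon 2 to exon 10 (r = 0.69), and the other 6 placements had r of at most 0.12. The run of bins 2 to 10 was chosen after their counts were seen. In the shPtbp1 table, the bin with the most reads was the lowest-numbered listed bin in 17 of 25 minus-strand genes with at least 3 listed bins. In plus-strand genes of that table, the most reads lay in the highest-numbered bin in 22 of 34. In the shPnky table the lowest-numbered bin led in 3 of 5 minus-strand genes. In its 8 plus-strand genes the lowest-numbered bin led in 4 and the highest-numbered in 3, which does not follow the shPtbp1 table. Vmp1 itself was counted among the minus-strand genes of both tables, with the most reads in its unnumbered bin.

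**Figure D1:**
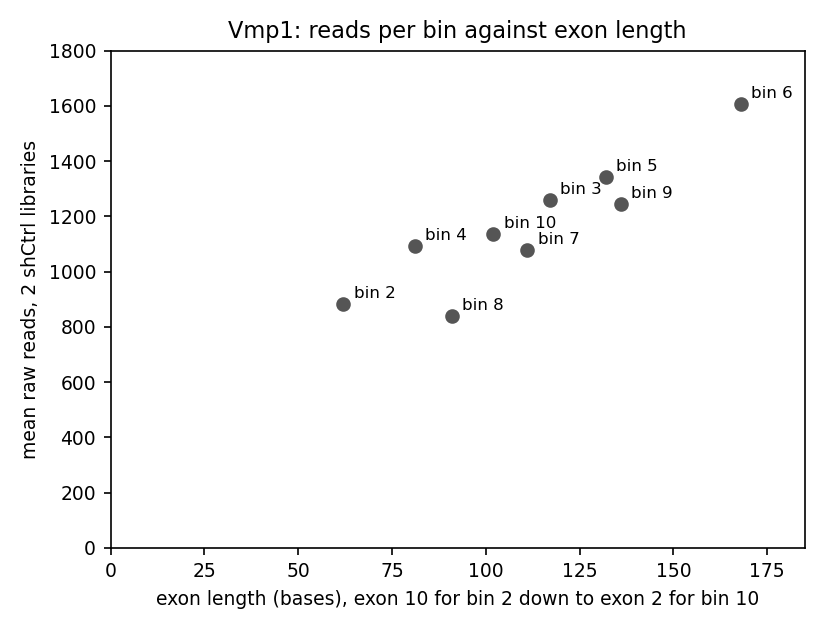
Mean raw reads of the 2 shCtrl libraries for Vmp1 bins 2 to 10 (vertical axis) against the length in bases of the exon placed with each bin, from exon 10 for bin 2 to exon 2 for bin 10 (horizontal axis). Reads mostly rise with length, and bin 6 on the longest exon (168 bases) holds the most. The fewest are in bin 8 (91 bases), below bin 2 on the shortest exon (62 bases).

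With that placement, reads per base in the first shCtrl library ran from 9.38 (bin 9, exon 3) to 15.0 (bin 2, exon 10), with a median of 10.8 over 9 bins. The unnumbered bin and bin 1 are then left for exons 12 and 11. Over the 1587 bases of exon 12, the unnumbered bin held 8.62 and 8.09 reads per base in shCtrl libraries 1 and 2, just below the lowest of bins 2 to 10 in the same libraries (9.38 and 8.54 reads per base). Bin 1 held 32.4 and 30.3 reads per base over the 103 bases of exon 11, but 6.68 and 6.25 over the 499-base longest annotated form of that exon, which belongs to short transcripts. The tables do not say which form was counted.

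In both knockdowns, the Vmp1 bins fell into 2 sets with opposite signs. The unnumbered bin and bin 1 had lower usage than in shCtrl, and every other listed bin, 9 in the shPnky table and 7 in the shPtbp1 table, had higher usage. The authors called 0.155% of 160603 tested bins in shPnky (0.0741% higher, 0.0809% lower) and 0.598% of 160290 in shPtbp1 (0.322% higher, 0.268% lower). Since a row is in the tables only because it was called, these contrasts chose the Vmp1 bins, and their folds are given as a description with no further test.

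The unnumbered bin held the most reads. It had 13674 and 12839 raw reads in the shCtrl libraries, 10199 and 7578 in shPnky and 11026 and 10895 in shPtbp1. All 4 knockdown libraries were below both control libraries, and shPnky library 2, which also had the lowest sum over all listed bins, was lowest. Raw reads are not corrected for depth, so shares within the gene were computed. Of the reads in the 11 bins of the shPnky table, the unnumbered bin took 49.2% ± 0.34 in shCtrl and 39.7% ± 0.54 in shPnky (SD, n = 2). Of the reads in the 9 bins listed in both tables, it took 53.3% ± 0.32 in shCtrl, 44.1% ± 0.43 in shPnky and 47.9% ± 0.40 in shPtbp1 (SD, n = 2). The groups did not overlap, and shPtbp1 lay between shCtrl and shPnky. In the authors' deposited tables its log2 fold of usage was -0.13 in shPnky (adjusted p = 3.63e-60, rank 4 of 249 by adjusted p) and -0.08 in shPtbp1 (adjusted p = 4.62e-20, rank 112 of 958). The deposited folds come from the authors' fit and are not log2 ratios of reads or shares. In shPnky they were -0.13 at this bin and 0.13 at bin 2, where edgeR's log2 count changes (below) were -0.62 and 0.04.

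Bin 1 had 3334 and 3120 raw reads in shCtrl, 2486 and 1819 in shPnky and 2683 and 2632 in shPtbp1. Again every knockdown library was below both controls. Its share of the 9 shared bins was 13.0% ± 0.047 in shCtrl, 10.7% ± 0.012 in shPnky and 11.6% ± 0.16 in shPtbp1 (SD, n = 2). The authors' deposited tables gave log2 folds of -0.17 (adjusted p = 1.48e-20) and -0.10 (adjusted p = 2.28e-06), the lowest of any Vmp1 bin in each table. The ratio of reads between the unnumbered bin and bin 1 hardly changed (below). The lower fold of bin 1 thus does not mean a larger fall in reads.

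The bins from 2 to 10 formed the other set. Bin 2, placed with exon 10, had 933 and 832 shCtrl reads, 1078 and 797 in shPnky and 998 and 987 in shPtbp1. Its raw counts overlapped between shCtrl and shPnky, whereas its share of the 9 shared bins did not: 3.54% ± 0.11 in shCtrl, 4.65% ± 0.029 in shPnky and 4.33% ± 0.033 in shPtbp1 (SD, n = 2). Bin 3 (exon 9) had 1296 and 1220 shCtrl reads, 1524 and 1160 in shPnky and 1397 and 1391 in shPtbp1. Its share was 5.06% ± 0.039, 6.67% ± 0.18 and 6.09% ± 0.018 in that order (SD, n = 2). At these and all other bins up to bin 10, shPnky library 1 lay above both control counts and the shallower library 2 below both, while the shares of both knockdowns were above those of the controls.

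Bin 4 (exon 8) lay nearest the threshold of the tables, with an adjusted p of 0.00356 in shPnky and 0.00599 in shPtbp1. It held 1086 and 1097 shCtrl reads, 1316 and 1036 in shPnky and 1208 and 1232 in shPtbp1. Its 2 shCtrl shares, 4.22% and 4.57% of the shared bins, differed more than those of bin 3. The knockdown shares were 5.65% and 6.07% in shPnky and 5.27% and 5.38% in shPtbp1, all above both controls.

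Bin 5 (exon 7) had 1424 and 1260 shCtrl reads, 1657 and 1225 in shPnky and 1470 and 1477 in shPtbp1, with shares of 5.39% ± 0.19, 7.15% ± 0.044 and 6.43% ± 0.023 (SD, n = 2). Bin 6 (exon 6, the longest of the upstream exons) had 1688 and 1525, 2172 and 1421, and 1737 and 1787 reads in the same order. Its shPnky shares, 9.33% and 8.33%, were the most unequal of the shared bins, and both were above the shPtbp1 shares of 7.58% and 7.80%. Bin 7 (exon 5) had 1137 and 1018 shCtrl reads, 1416 and 1017 in shPnky and 1164 and 1251 in shPtbp1, and in the authors' deposited table for shPnky it had the highest log2 fold of the Vmp1 bins (0.17, adjusted p = 7.47e-15).

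Bin 10, placed with exon 2, which holds the start of the coding sequence, had 1193 and 1077 shCtrl reads, 1430 and 1006 in shPnky and 1219 and 1245 in shPtbp1. Its share was 4.56% ± 0.099, 6.02% ± 0.17 and 5.38% ± 0.081 (SD, n = 2). Bins 8 and 9 were listed for shPnky only, and their shPtbp1 counts were not analysed here. Bin 8 had 901 and 777 shCtrl reads and 1059 and 759 in shPnky, and bin 9 had 1275 and 1213 in shCtrl and 1611 and 1097 in shPnky. In the authors' deposited table both had a log2 fold of 0.14. Absence from the shPtbp1 table does not show that the knockdowns differ at these bins.

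**Figure D2:**
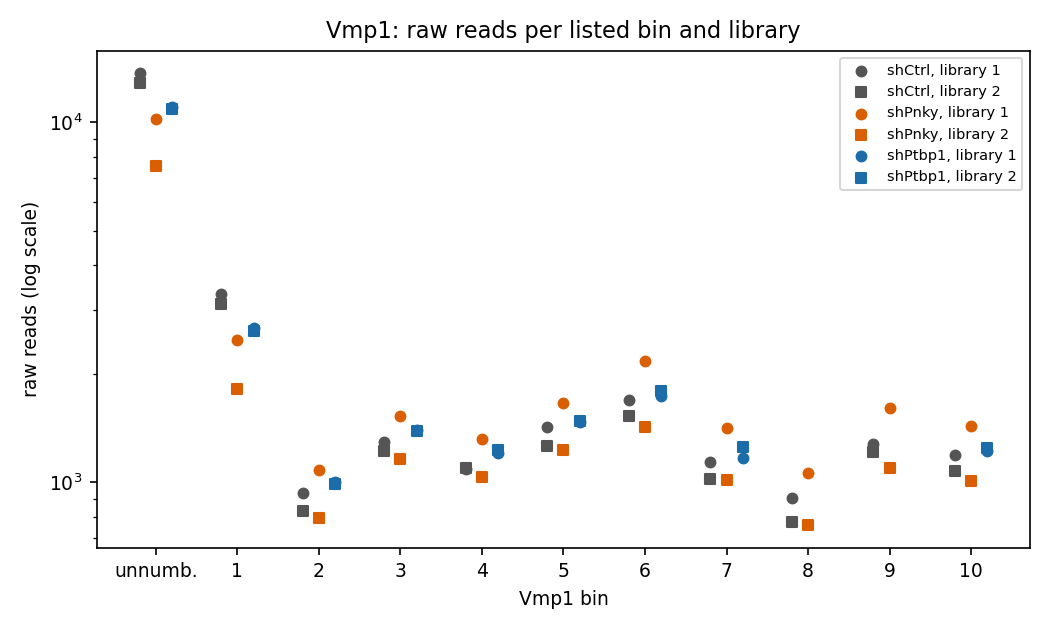
Raw reads (vertical log axis) of each listed Vmp1 bin (horizontal axis) in the libraries of shCtrl (grey), shPnky (orange) and shPtbp1 (blue), with circles for library 1 and squares for library 2. The unnumbered bin and bin 1 lie below both controls in all knockdown libraries, whereas in each of bins 2 to 10 shPnky library 1 lies above and library 2 below both controls.

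The folds within each set were narrow. In the authors' deposited table for shPnky, the 9 higher bins had log2 folds from 0.13 to 0.17 (median 0.14). In that for shPtbp1, the 7 higher bins ranged from 0.07 to 0.10 (median 0.09). The median absolute log2 fold of the Vmp1 bins was 0.14 in shPnky, beside 0.11 over all 249 listed bins, and 0.09 in shPtbp1, beside 0.16 over the 945 listed bins with a fold. Deposited folds of bins with unlike read levels may not be comparable, which was not tested. Both tables share their control libraries, so their folds at the same bin are set side by side and not correlated. By number of listed bins, only Dclk1 had more than Vmp1 in shPnky, where the median gene had 1. In shPtbp1, 6 of 602 genes had more and Agap3 had as many. This ranking comes from the calls that chose the rows, and the number of Vmp1 bins tested is not known. Bins of a gene share its reads, so their calls are not independent.

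**Figure D3:**
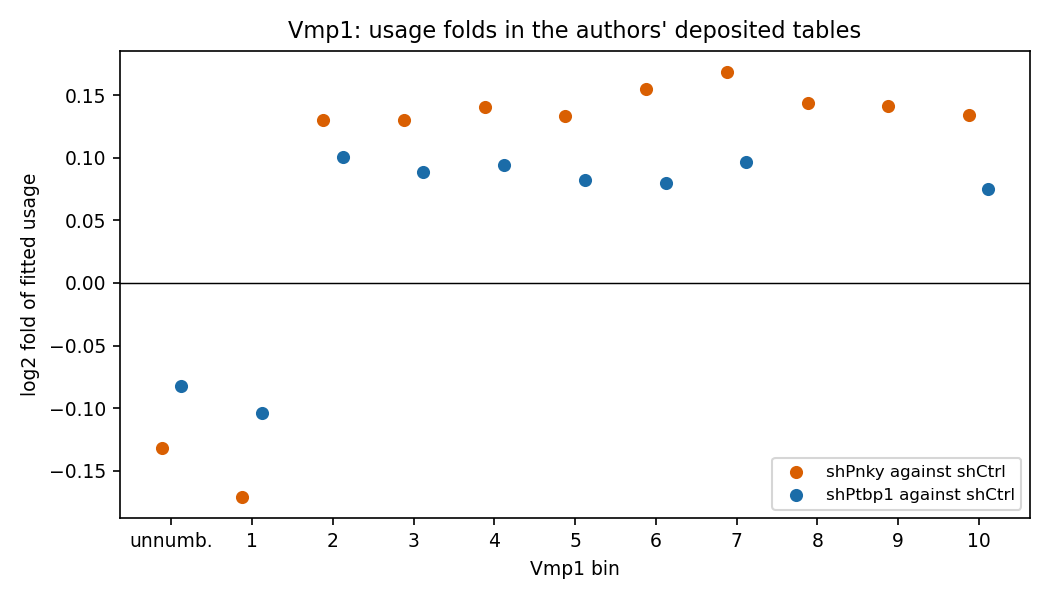
The log2 fold of fitted usage against shCtrl (vertical axis) from the authors' deposited tables for each listed Vmp1 bin (horizontal axis), for shPnky (orange) and shPtbp1 (blue). The unnumbered bin and bin 1 are below 0 in both, and the remaining bins lie between 0.13 and 0.17 for shPnky and between 0.07 and 0.10 for shPtbp1.

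Reads within each set kept nearly fixed proportions. The unnumbered bin held 4.10 and 4.12 reads per read of bin 1 in shCtrl, 4.10 and 4.17 in shPnky and 4.11 and 4.14 in shPtbp1, so these ranges overlapped. Among the 7 other bins listed in both tables, no bin's share of their summed reads moved by more than 0.49 percentage points in shPnky or 0.25 in shPtbp1 from its shCtrl mean. For example, bin 5 took 16.0% ± 0.40 of these reads in shCtrl, 15.8% ± 0.24 in shPnky and 15.9% ± 0.16 in shPtbp1 (SD, n = 2).

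The change lay between the sets. The 7 other bins held 0.515 and 0.503 reads per read of the unnumbered bin and bin 1 together in shCtrl. This ratio was 0.671 and 0.693 in shPtbp1 and 0.835 and 0.815 in shPnky. The order shCtrl, shPtbp1, shPnky had no overlap between neighbours, and the mean ratio was 1.34 times that of shCtrl in shPtbp1 and 1.62 times in shPnky. The 2 sets were drawn by the sign of the deposited folds, so the separation from shCtrl is a description.

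**Figure D4:**
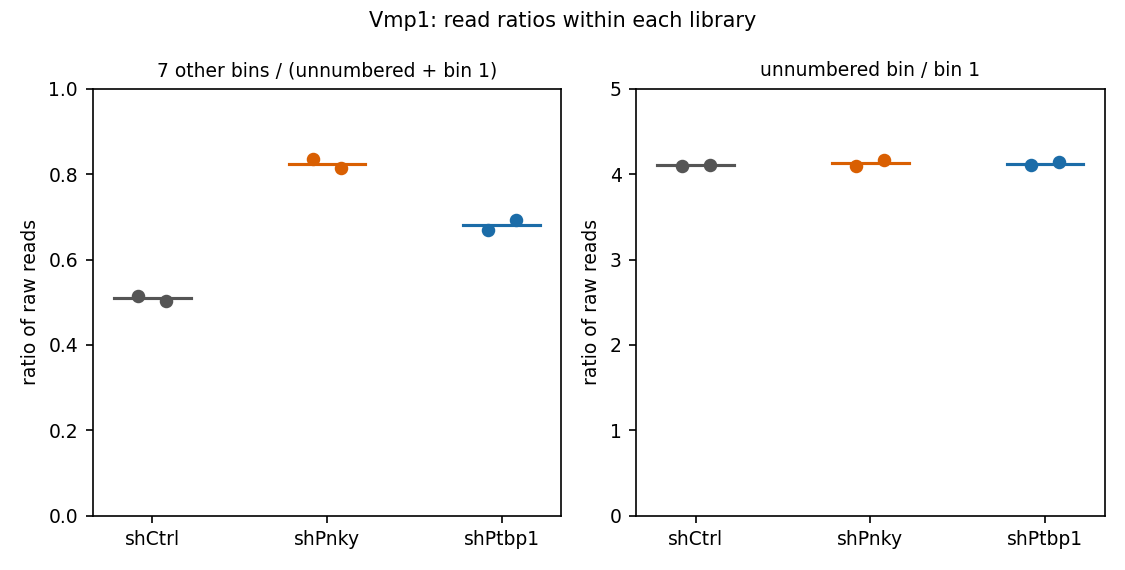
Ratios of raw reads within each library (points, 2 per group) with the group mean (line). On the left, the 7 other shared bins over the unnumbered bin plus bin 1 rise from 0.503 and 0.515 in shCtrl to 0.671 and 0.693 in shPtbp1 and 0.815 and 0.835 in shPnky. On the right, the unnumbered bin over bin 1 stays between 4.10 and 4.17 in all 6 libraries.

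Count changes were scaled over all listed bins of a table. In edgeR's fit with TMM scaling, the log2 count change of the unnumbered bin was -0.62 (SE 0.039) in shPnky and -0.33 (SE 0.034) in shPtbp1, and that of bin 1 was -0.63 (SE 0.046) and -0.34 (SE 0.044). The 9 other bins in shPnky had changes of 0.04 to 0.13, each with an SE between 0.053 and 0.073. The 7 other bins in shPtbp1 had changes of 0.06 to 0.11. Over all listed bins the median change was 0.05 in shPnky and 0.02 in shPtbp1, so on this scale the other bins lay near the median while the unnumbered bin and bin 1 were lower. The scale rests on called bins, since full library sizes were not used here, and it decides which set sits near 0. Scaling by the sum of the listed reads put the shPtbp1 median at 0.13, the unnumbered bin and bin 1 at -0.23 each and the other bins at 0.17 to 0.22. The counts thus do not tell which set moved in shPtbp1. In shPnky the scalings differed less, but they too rest on called bins, so which set moved is not settled there either. The difference between the sets does not depend on the scale.

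The contrast on which the rows were not chosen is that of shPnky against shPtbp1. Its bins were still chosen for a difference of each knockdown from the same shCtrl libraries, so it is not free of that choice. It was tested with edgeR's quasi-likelihood test of bin usage over the 65 bins of 18 genes with at least 2 bins listed in both tables, each bin against its gene as a whole. Relative to shPtbp1, usage in shPnky was lower for the unnumbered bin (log2 difference -0.12, SE 0.032, edgeR adjusted p = 0.0336). It was higher for bin 6 (0.20, SE 0.048, edgeR adjusted p = 0.0112) and bin 7 (0.19, SE 0.053, edgeR adjusted p = 0.0336). Thus 3 of 9 Vmp1 bins passed, beside 27.7% of all tested bins (10.8% higher and 16.9% lower in shPnky), a share near the background. Bin 1 (-0.12, edgeR adjusted p = 0.108) and bins 2, 3, 4, 5 and 10 (0.10 to 0.16, edgeR adjusted p from 0.0799 to 0.347) did not pass, which does not show that they were alike.

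All 9 differences had the sign of the shPnky fold, that is, the shift in shPnky was the larger at every shared bin. The bins share reads and a denominator, so they are not 9 independent observations. With the replicate number as a block, the unnumbered bin no longer passed (-0.12, edgeR adjusted p = 0.0573), while bins 6 and 7 did. Leaving out 1 library leaves 1 library in its group, whose spread is then taken from the other groups. Without shCtrl replicate 1 or 2, 1 Vmp1 bin passed, with the unnumbered bin still at -0.12 and bin 7 at 0.19. None passed in edgeR without shPnky replicate 1 or shPtbp1 replicate 1 (5 and 2 bins at an unadjusted p under 0.05). Bin 6 went from 0.20 to 0.11 without shPnky replicate 1 (edgeR adjusted p = 0.272), and bin 7 from 0.19 to 0.14 without shPtbp1 replicate 1 (edgeR adjusted p = 0.236). DESeq2, on all libraries, called 8 of the 9. It set each bin against the other bins of its gene only, and its difference for the unnumbered bin was -0.22. The signs were the same in all 10 alternatives.

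**Figure D5:**
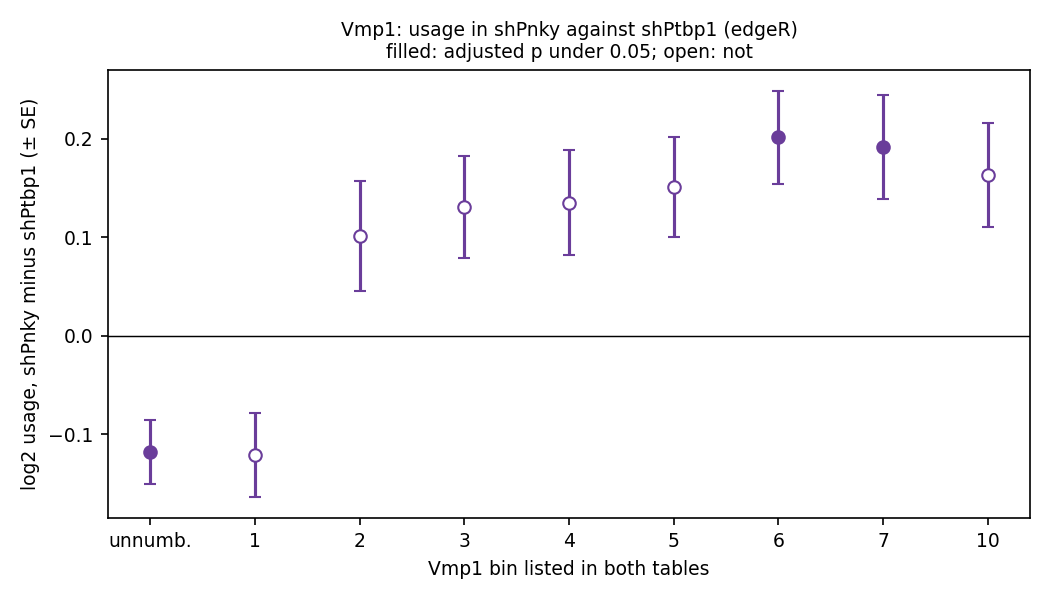
Log2 difference in usage, shPnky minus shPtbp1, with its SE (vertical axis), for the 9 Vmp1 bins listed in both tables (horizontal axis). Filled points (the unnumbered bin, bin 6 and bin 7) passed an edgeR adjusted p under 0.05 and open points did not; the unnumbered bin and bin 1 are below 0 and the other bins above.

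Among 71 genes with a bin and a fold in both tables, the leading shared bin (the one whose larger adjusted p was smallest) was lower in both for 31, Vmp1 included. The 3 genes whose folds at that bin lay closest to those of the unnumbered Vmp1 bin were Pcdhga11, Dclk1 and Fopnl, with distances of 0.034, 0.039 and 0.040 in the plane of the shPnky and shPtbp1 log2 folds. In the authors' deposited tables the unnumbered bin of Pcdhga11, a clustered protocadherin whose shared exons make its reads hard to assign within its cluster, had folds of -0.10 and -0.09. Bin 7 of Dclk1, a doublecortin-like kinase, had -0.10 in each, and bin 3 of Fopnl, which encodes a centrosomal protein, had -0.15 and -0.12. Closeness in fold was not likeness in reads. Bin 7 of Dclk1 had 40016 and 37625 raw reads in shCtrl and 29278 and 20269 in shPnky, both below the controls, as at Vmp1. The Pcdhga11 bin had 2651 and 2271 in shCtrl and 2704 and 1960 in shPnky. Bin 3 of Fopnl had 759 and 682 in shCtrl and 818 and 615 in shPnky. In these 2 genes shPnky library 1 lay above and library 2 below both controls. The reads of Fopnl bin 3 were few beside those of Vmp1, so their folds may not be comparable.

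Of 52 genes of the autophagy machinery, 2 had a listed bin in shPnky, where 175 genes were listed in all, and 4 in shPtbp1, where 602 were. The number of genes tested was not analysed here, so nothing is read from these counts. Lamp2, a lysosomal membrane protein needed for the late steps of autophagy, was listed in both. In the authors' deposited tables its bin 1 had log2 folds of 0.09 in shPnky (adjusted p = 4.6e-80) and 0.06 in shPtbp1 (adjusted p = 6.73e-06), and its unnumbered bin -0.12 and -0.07. Bin 1 of Lamp2 had 12973 and 11917 shCtrl reads, 21740 and 15528 in shPnky and 16041 and 16644 in shPtbp1, so all knockdown libraries were above both controls. The unnumbered bin of Lamp2 had 4377 and 4190 shCtrl reads, 4987 and 3590 in shPnky and 4578 and 4340 in shPtbp1. Only shPnky library 2 was below both controls there, unlike at the unnumbered Vmp1 bin.

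Mtor, the kinase that restrains autophagy in fed cells, was listed at different bins, bin 57 in shPnky (log2 fold -0.06) and bin 34 in shPtbp1 (-0.19, from 452 and 407 reads to 280 and 265). In the shPtbp1 table alone, bin 7 of Atg16l1, which directs the lipidation of LC3, had a log2 fold of 0.42 on 49 and 53 shCtrl reads and 97 and 97 in shPtbp1. Bin 3 of Map1lc3b, which encodes an LC3 protein, had a fold of 0.02 in the authors' deposited table. Of the 10 annotated genes in the list of VMP1 relatives and contact site partners, none was listed in shPnky and 1 in shPtbp1, counts that again stand beside 175 and 602 listed genes. It was Col4a3bp, which encodes a ceramide transfer protein (bin 10, 0.42, from 67 and 47 reads to 124 and 116). Tmem41b, a relative of VMP1 that also acts in autophagosome formation, had no listed bin.

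The sums over listed bins ranged from 1727096 to 2403866 reads per library in the shPnky table and from 3514859 to 3920040 in the shPtbp1 table, and are not library sizes. Bin 13 of Ptbp1 had 22334 and 19594 shCtrl reads and 4967 and 4961 in shPtbp1. No bin of Pnky was listed, so its knockdown was not checked. Of 7 markers of neural stem cells and astrocytes, Gfap, Prom1 and Vim had a listed bin in at least 1 table. Bin 2 of Gfap had 39928 and 34852 shCtrl reads, and the authors' deposited tables give it a log2 fold of usage of 0.05 with the Pnky hairpin and -0.03 with the Ptbp1 hairpin. Bin 2 of Prom1 had 125 and 123 reads with the control hairpin and 80 and 52 in shPnky (log2 fold -0.50), bin 25 a fold of 0.44 in shPtbp1, and bin 5 of Vim a fold of -0.0028 in shPnky. Of 5 neuronal markers Ncam1 was listed, in shPtbp1 only, where its unnumbered bin went from 8997 and 8490 reads to 3444 and 3376 (log2 fold -0.61). Its bins 1, 2 and 3 also had lower usage, whereas all its other listed bins had higher usage. Bin 4 of Ncam1, for example, went from 8481 and 7833 reads to 12659 and 12465 (log2 fold 0.17). No marker of oligodendrocytes, microglia or vessels was listed. These folds are of usage within a gene, not of its level. The tables hold called bins only, so an unlisted marker was not measured, and the part of cell type in the Vmp1 shift was not tested.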

How the data were processed

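Poly(A)-selected, strand-specific libraries were sequenced from 6 samples, 2 per group. Per the submitters' processing notes, TopHat2 2.0.10, Cuffdiff 2.1.1 and build mm9 were used, in roles that are not stated. How reads were assigned to bins, from which gene models, and which DEXSeq release made the usage test is not given in the sources used here. Per the file headers, each deposited row gives raw counts per library, the authors' p-value with its adjusted form, a log2 fold of fitted usage, the fitted usage values, dispersion and statistic (scores of the authors' model) and a mean signal, the mean raw count. Depth is known for listed bins only.

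Groups come from the sample titles. Row names gave the bin numbers, because trailing zeros were missing from 52 labels of the shPtbp1 table. The numbers of tested bins were recovered from p and adjusted p. shCtrl counts of the 118 shared bins were the same in both tables. Replicate pairs were not duplicates of each other: their chi-square per degree of freedom was 2.42 to 7.62. Shares are percent of a gene's listed reads. Count changes (glmQLFit, TMM) and the usage contrast of shPnky against shPtbp1 (diffSpliceDGE, Benjamini-Hochberg over 65 bins, threshold 0.05) used edgeR 4.0.16 in R 4.3.3. DESeq2 1.42.0 was an alternative for the usage contrast, and other steps used Python 3.11.15. Only the usage contrast was tried on simulated data, with a fixed spread and planted changes larger than the Vmp1 differences. The simulation therefore does not show how the test performs at differences of that size. Vmp1 and all lists were chosen with earlier results of these data known. Genes named are all Vmp1 bins, all listed members of the autophagy, contact site and marker lists, and the 3 genes nearest to Vmp1 in both folds; Ptbp1 was added to check the label and Tmem41b was named after it was seen to be unlisted. Alternatives were other scalings, a mean count of at least 50, an adjusted p under 0.001, a replicate block, other denominators and the omission of each library.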

Additional observations from a re-analysis of the deposited data

How the results depend on the processing

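Counts of calls moved more than signs. For shPnky against shPtbp1, DESeq2 called 8 Vmp1 bins and 30 of 65 bins in all, where edgeR called 3 and 18. Leaving out 1 library gave 0 to 3 Vmp1 bins and 11 to 19 bins in all. With a replicate block, 2 Vmp1 bins (bins 6 and 7) and 16 bins in all were called. The labels give only replicate numbers, and deviations of same-numbered libraries correlated at -0.0098, 0.16 and 0.0069 over 118 bins, so the numbers were not taken to pair the samples. The fall in share of bin 1 in shPnky, -2.37 percentage points, was -2.30 over the bins listed in both tables and -7.64 without the unnumbered bin in the denominator, where the other bins gained 7.64 in place of 11.9. In shPtbp1, leaving that bin out gave -5.52 for bin 1, in place of -1.37, and 5.52 for the others, in place of 6.80; a smaller denominator moves these by construction. Under an adjusted p below 0.001, 10 of 11 Vmp1 bins were called in shPnky (155 of all 249 listed bins, 0.0965% of those tested) and 6 of 9 in shPtbp1 (637 of 958, 0.397%). Small positive log2 count changes in shPnky turned negative in 3 cases: bin 3 without shPnky replicate 2, and bin 4 without shCtrl replicate 1 or shPnky replicate 2. Over the libraries left out, bin 3 ranged from -0.0045 to 0.0898 and bin 4 from -0.021 to 0.16. Depth limits what is seen to the listed bins, each with at least 759 reads per library in Vmp1.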
